A study of Homo sapiens with 6 samples.

Results

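The 8 genes described here are ATF4, the bZIP (basic leucine zipper) factors ATF3, ATF5, DDIT3, CEBPB, CEBPG and JDP2, and TRIB3. They and the gene lists below were chosen by name, with earlier results of these data known. Counts set beside shares of all genes therefore describe and do not test. All 8 genes were found among the 19676 genes measured. Their mRNA was measured in A375, a human melanoma line that carries mutant BRAF, using 6 Affymetrix expression arrays, 1 for each treatment and time. At 6 h the cells had received 10 µM vemurafenib together with 100 nM AT9283, 10 µM vemurafenib alone, 100 nM AT9283 alone, or the solvent DMSO. At 16 h they had received 10 µM vemurafenib or DMSO. Vemurafenib inhibits mutant BRAF and so ERK signalling, AT9283 inhibits Aurora kinases and JAK2 among others, and the study's title asks about disrupting the mechanisms by which ATF4 is expressed.

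ATF4 is the central transcription factor of the integrated stress response. Kinases that phosphorylate eIF2α lower protein synthesis in general while ATF4 mRNA is translated more, and ATF4 then raises genes of amino acid supply and redox balance. bZIP factors bind DNA only as dimers, so the partners that are present shape what ATF4 does. CEBPB and CEBPG, which belong to the C/EBP family, pair with ATF4, and ATF3, JDP2 and DDIT3 (CHOP) are further bZIP factors that act with it or against it. TRIB3 is a pseudokinase that is induced by ATF4 and CHOP and dampens both.

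ATF4 binds composite C/EBP-ATF response elements, so the annotated promoters of the 8 genes were searched for that element (TGATGNAA), for the cAMP response element (TGACGTCA) and for the AP-1 site (TGANTCA). The search covered both strands of 300 bases per start, from 250 before to 50 after it, as given by RefSeq on GRCh38.p14. On that build ATF3 lies at chromosome 1 positions 212565407 to 212620777, DDIT3 at chromosome 12 positions 57516588 to 57520517 and JDP2 at chromosome 14 positions 75426943 to 75474107. ATF5 lies at chromosome 19 positions 49928906 to 49933935, CEBPG at chromosome 19 positions 33373709 to 33382686 and CEBPB at chromosome 20 positions 50190583 to 50192690. The 8 genes had 19 such windows. The C/EBP-ATF element lay in 3 of them, 1 each of ATF3, JDP2 and CEBPG, and in 3.62% of all 35116 windows. The AP-1 site lay in 3, 2 of them overlapping windows of DDIT3 and 1 of ATF5, and in 7.71% of all windows, whereas the cAMP response element lay in none of the 19 and in 1.85% of all windows. The 4 windows below belong to the genes with the highest differences under vemurafenib at 6 h, and were picked because they hold a match. The other windows of JDP2, ATF3 and CEBPG held none of these elements. Capitals mark the matched element, the C/EBP-ATF element in the first 3 and the AP-1 site in DDIT3. A match describes these letters and was not tested as a binding site.
JDP2, chr14:75427772-75428071, plus strand: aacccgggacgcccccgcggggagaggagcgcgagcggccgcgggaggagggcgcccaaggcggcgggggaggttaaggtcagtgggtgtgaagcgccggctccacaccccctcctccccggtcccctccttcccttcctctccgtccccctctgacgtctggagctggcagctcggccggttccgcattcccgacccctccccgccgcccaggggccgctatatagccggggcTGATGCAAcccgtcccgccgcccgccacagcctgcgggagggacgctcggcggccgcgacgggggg
CEBPG, chr19:33373863-33374162, plus strand: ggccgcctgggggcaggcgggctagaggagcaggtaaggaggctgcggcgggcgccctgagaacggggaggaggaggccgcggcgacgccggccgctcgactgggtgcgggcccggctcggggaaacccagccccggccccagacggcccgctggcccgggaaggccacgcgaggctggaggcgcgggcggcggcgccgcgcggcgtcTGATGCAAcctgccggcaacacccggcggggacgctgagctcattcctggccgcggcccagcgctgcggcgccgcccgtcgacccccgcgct
ATF3, chr1:212565157-212565456, plus strand: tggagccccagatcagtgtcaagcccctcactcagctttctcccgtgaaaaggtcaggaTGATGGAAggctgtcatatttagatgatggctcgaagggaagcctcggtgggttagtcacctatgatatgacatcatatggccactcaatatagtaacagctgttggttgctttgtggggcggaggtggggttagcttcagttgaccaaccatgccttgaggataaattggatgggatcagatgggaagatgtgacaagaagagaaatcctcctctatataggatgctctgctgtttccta
DDIT3, chr12:57520468-57520767, minus strand: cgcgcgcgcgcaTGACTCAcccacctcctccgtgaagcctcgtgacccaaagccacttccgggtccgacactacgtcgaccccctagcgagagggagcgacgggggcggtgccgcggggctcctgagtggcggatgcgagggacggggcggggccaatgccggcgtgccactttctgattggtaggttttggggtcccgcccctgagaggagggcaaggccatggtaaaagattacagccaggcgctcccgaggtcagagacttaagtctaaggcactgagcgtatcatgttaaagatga
The element begins 16 bases before the annotated start in JDP2, 42 in CEBPG and 191 in ATF3, and the AP-1 site of DDIT3 begins 238 bases before it. In JDP2 and CEBPG the 8 matched letters are the same, TGATGCAA, and in ATF3 they are TGATGGAA.

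No condition was repeated, so no difference below has a replicate check, and the precision is limited by the number of arrays. A gene is said to have risen or fallen when it differed by at least 1 on the log2 scale (2-fold) with the higher array at log2 6 (intensity 64) or more, which sets a size and is no test. As a yardstick without drug, 95% of genes at that floor differed by at most 0.48 on the log2 scale between the DMSO arrays at 16 h and 6 h. That pair also holds time. A second yardstick, which holds a drug but not time, is AT9283 against DMSO at 6 h, where 95% of genes differed by at most 0.26. Of 9 pigment cell markers measured, SOX10, MITF and ERBB3 reached the floor on every array, and MLANA, PMEL, TYR, TYRP1 and S100A1 on none. Of 10 markers of other lineages 8 were below the floor on every array and COL1A1 was above it on every array. DUSP6, a readout of ERK output, fell to log2 4.28 under vemurafenib at 6 h, against 9.50 in DMSO, and to 4.38 under vemurafenib at 16 h, against 9.60 in DMSO. Both vemurafenib arrays were below the floor, so the size of that fall is not measured.

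After 6 h of vemurafenib 4 of the 8 genes rose, JDP2, ATF3, DDIT3 and CEBPG, and none fell, where 1.03% of 9099 genes rose and 2.14% fell. At a lower size of 1.5-fold 7 of the 8 were higher, all but ATF5, where 3.32% of genes were. Their median difference was 1.15 on the log2 scale, against 0.02 over all genes. After 16 h JDP2, DDIT3 and ATF3 were over 2-fold, where 5.19% of genes were (5.79% were as much lower), and the median of the 8 was 0.57. With ATF4, 4 were over 1.5-fold at 16 h, where 13.0% of genes were. With the mean over probe sets JDP2 was below the floor on every array, which left 3 genes over 2-fold at 6 h, and ATF3 at 16 h was under 2-fold (0.72). AT9283 alone put none of the 8 over either size, where 0.0224% of genes were 2-fold and 0.101% were 1.5-fold higher. JDP2 was below the floor on both of those arrays and could not be called there, which leaves 7 genes. With both drugs JDP2 rose against DMSO, where 0.639% of genes did and 1.93% fell, and 4 of the 8 were 1.5-fold higher, where 2.58% of genes were. Against AT9283 alone JDP2 and ATF3 rose with both drugs, by 1.91 and 1.10, where 0.452% of genes did. A second ATF3 probe set at the floor gave 0.576 there and 0.50 against DMSO, under both sizes. JDP2, ATF3 and DDIT3 fell against vemurafenib alone, where 0.322% of 9003 genes did.

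**Figure D1:**
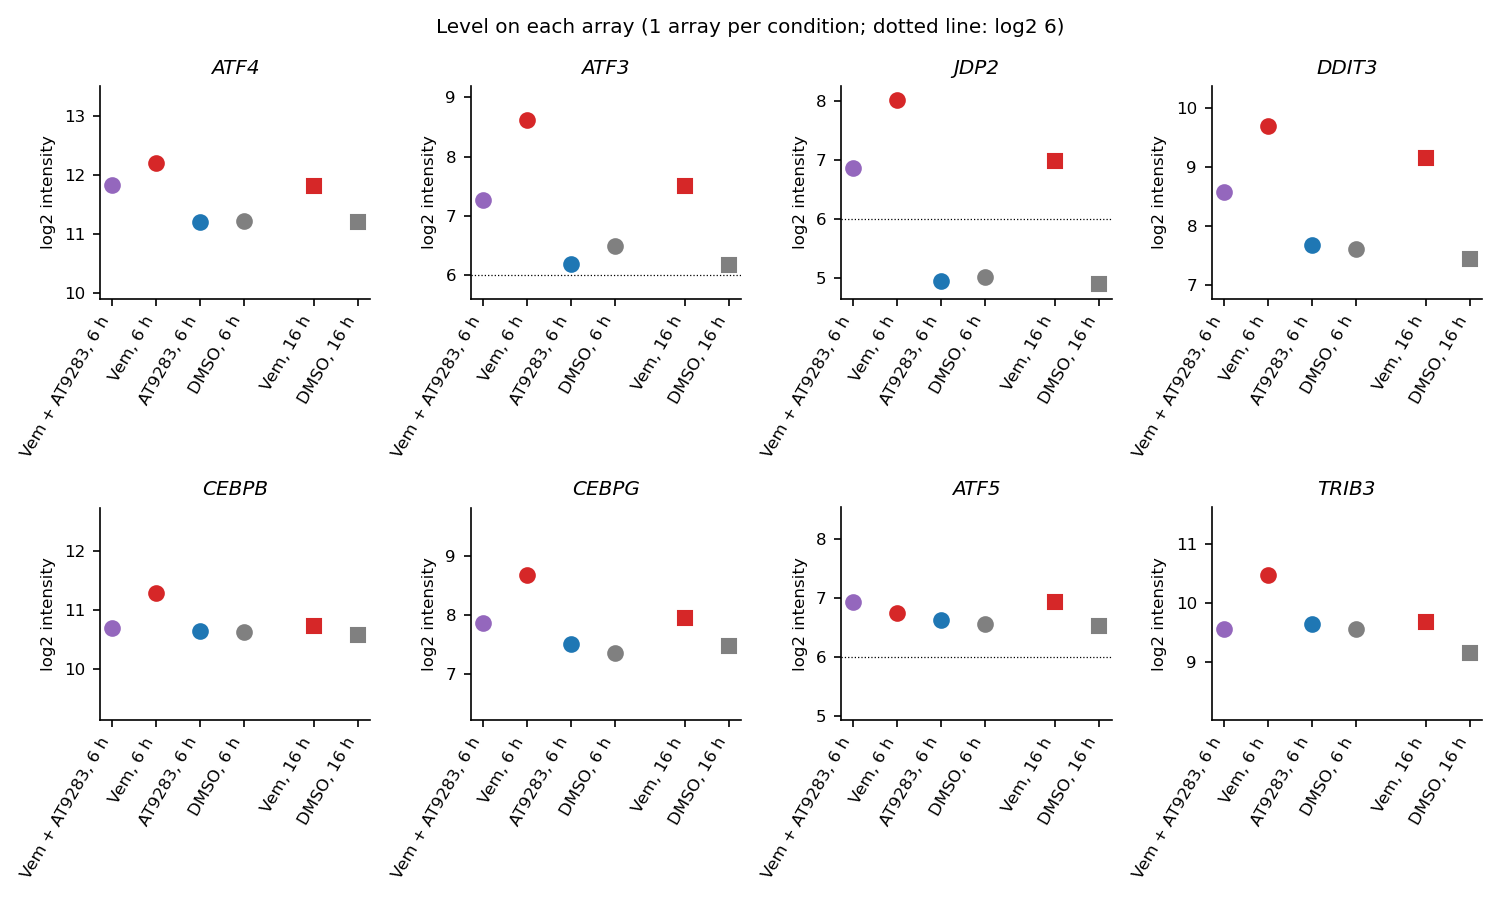
Level of each gene on the 6 arrays, as log2 intensity of the probe set used, with 1 point per array (circles 6 h, squares 16 h; each panel spans the same number of log2 units). In 7 of the 8 panels vemurafenib alone at 6 h is the highest point, and TRIB3 with both drugs lies at its DMSO level.

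ATF4, at chromosome 22 positions 39520559 to 39522686, had an intensity of 3636 with both drugs, 4730 under vemurafenib, 2376 under AT9283 and 2379 in DMSO at 6 h. At 16 h it had 3611 under vemurafenib and 2366 in DMSO. The 3 arrays with vemurafenib were the highest, and the 3 without it lay within 0.01 of each other on the log2 scale. The differences from DMSO were 0.99 for vemurafenib at 6 h (1.99-fold, just under the size rule), 0.61 for vemurafenib at 16 h and 0.61 for both drugs. In rank, ATF4 was 96th from the top of 9099 genes under vemurafenib at 6 h and 1162nd of 9469 at 16 h. Both drugs and vemurafenib at 16 h were neighbours in the order of levels, 0.01 apart.

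Among the C/EBP partners, CEBPG, a short factor that acts by pairing with others, had the larger differences. Its intensity was 232.5 with both drugs, 406.5 under vemurafenib, 182.2 under AT9283 and 164.0 in DMSO at 6 h, and 246.6 under vemurafenib and 177.0 in DMSO at 16 h. It rose by 1.31 under vemurafenib at 6 h, whereas its differences of 0.48 at 16 h and 0.50 with both drugs were under both sizes. A second probe set of CEBPG, also at the floor, gave 1.41, 0.68 and 0.71 for the same 3 differences. CEBPB, a regulator of inflammation and differentiation, had an intensity of 1654 with both drugs, 2497 under vemurafenib, 1599 under AT9283 and 1574 in DMSO at 6 h. At 16 h it had 1696 under vemurafenib and 1532 in DMSO. The vemurafenib array at 6 h stood 0.56 above the next array, and the other 5 lay within 0.15 of each other. The differences of CEBPB were 0.67 for vemurafenib at 6 h, 0.15 at 16 h and 0.07 with both drugs.

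ATF3 and JDP2 are closely related factors that can repress genes with AP-1 or cAMP response elements. JDP2 had an intensity of 116.5 with both drugs, 257.1 under vemurafenib, 31.1 under AT9283 and 32.3 in DMSO at 6 h, and 126.4 under vemurafenib and 29.7 in DMSO at 16 h. The 3 arrays with vemurafenib were above the floor and the 3 without it below, so the size of the differences depends on values near background. JDP2 rose by 2.99 under vemurafenib at 6 h (7.96-fold, 9th from the top of 9099 genes), by 2.09 at 16 h and by 1.85 with both drugs (13th of 9081). Its other probe set was below the floor on every array.

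ATF3, a factor induced by many stresses, had an intensity of 154.5 with both drugs, 392.7 under vemurafenib, 72.3 under AT9283 and 89.7 in DMSO at 6 h, and 181.0 under vemurafenib and 72.0 in DMSO at 16 h. All 3 arrays with vemurafenib were above the 3 without it. ATF3 rose by 2.13 under vemurafenib at 6 h and by 1.33 at 16 h, and its difference with both drugs was 0.78. AT9283 alone differed from DMSO by -0.31, the 55th lowest of 8942 genes. DMSO at 16 h differed from DMSO at 6 h by -0.32, so the DMSO array at 6 h was the highest of the 3 without vemurafenib. On a second probe set at the floor the AT9283 difference was -0.07 and the differences under vemurafenib were 1.87 at 6 h and 0.70 at 16 h. With both drugs that probe set differed by 0.50 from DMSO and by 0.576 from AT9283 alone, under both sizes. The remaining probe set was below the floor on every array, with a difference of 0.21 at 6 h.

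DDIT3 encodes CHOP, a C/EBP factor that takes part in cell death under lasting stress. Its intensity was 378.8 with both drugs, 823.6 under vemurafenib, 203.7 under AT9283 and 195.0 in DMSO at 6 h, and 564.4 under vemurafenib and 174.3 in DMSO at 16 h. The order of the arrays was vemurafenib at 6 h, vemurafenib at 16 h and both drugs, with gaps of 0.55 and 0.58 between them, and then the 3 arrays without vemurafenib 0.89 lower. DDIT3 rose by 2.08 at 6 h and by 1.70 at 16 h, and its difference with both drugs was 0.96.

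ATF5, a relative of ATF4 whose translation is controlled in the same way, was the exception. Its intensity was 122.3 with both drugs, 106.5 under vemurafenib, 98.1 under AT9283 and 94.4 in DMSO at 6 h, and 121.7 under vemurafenib and 91.7 in DMSO at 16 h. All 6 arrays lay within 0.42 of each other on the log2 scale, less than the yardstick of 0.48. The 3 arrays with vemurafenib were still above the 3 without it, and the array with both drugs was the highest. The differences of ATF5 were 0.17 for vemurafenib at 6 h, 0.41 at 16 h and 0.37 with both drugs, the last beyond the 6 h yardstick of 0.26. Its 3 other probe sets were below the floor on every array.

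TRIB3, at chromosome 20 positions 380760 to 397559, had an intensity of 754.5 with both drugs, 1425 under vemurafenib, 800.6 under AT9283 and 755.2 in DMSO at 6 h. At 16 h it had 816.7 under vemurafenib and 567.9 in DMSO. The vemurafenib array at 6 h stood 0.80 above all others, and both drugs, AT9283 and DMSO at 6 h lay within 0.09 of each other. The difference was 0.92 for vemurafenib at 6 h, 0.52 at 16 h and -0.00 with both drugs. DMSO at 16 h was 0.41 below DMSO at 6 h. Against the mean of both DMSO arrays the values were 1.12 for vemurafenib at 6 h, 0.32 at 16 h and 0.20 with both drugs. The second probe set, also at the floor, gave 1.02, 0.54 and -0.05 against DMSO of the same time. On it DMSO at 16 h differed from DMSO at 6 h by -0.23.

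**Figure D2:**
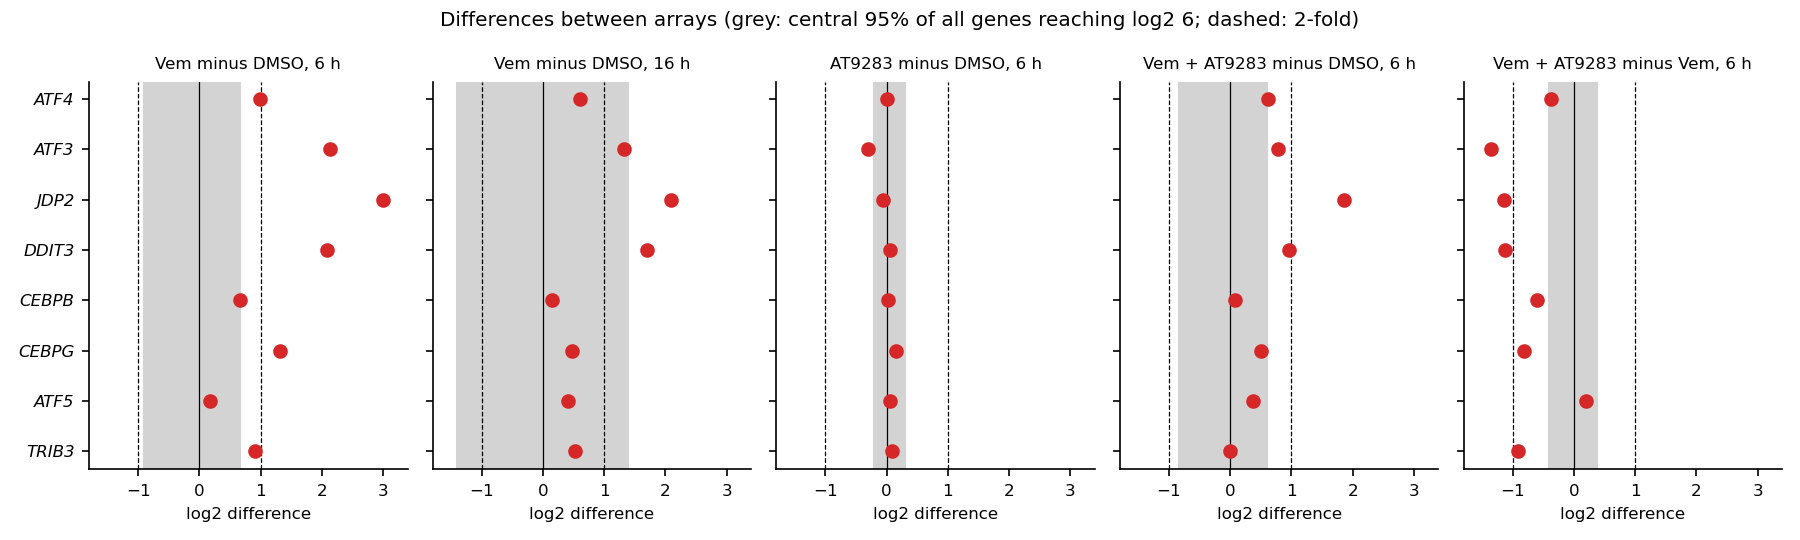
Log2 difference of each gene in 5 comparisons (points), with the central 95% of all genes that reached log2 6 in grey and the 2-fold size as dashed lines. JDP2, ATF3 and DDIT3 lie furthest right under vemurafenib at 6 h and beyond -1 for both drugs against vemurafenib, and for AT9283 alone 7 of the 8 lie within the grey range and ATF3, at -0.31, lies below it.

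To measure what AT9283 added to vemurafenib, the array with both drugs was set against vemurafenib alone. It was lower for 7 of the 8 genes, by 1.35 for ATF3, 1.14 for JDP2, 1.12 for DDIT3, 0.92 for TRIB3, 0.81 for CEBPG, 0.59 for CEBPB and 0.38 for ATF4, and 0.20 higher for ATF5. Of the 8, 6 were lower by at least 1.5-fold, where 0.955% of genes were. ATF4 itself lay inside the central 95% of all genes, which ran from -0.40 to 0.39. All of these differences use the same vemurafenib array, and so do the shares that follow, which also use the same DMSO array. Of the log2 difference under vemurafenib at 6 h, the array with both drugs kept 61.9% for JDP2, 61.7% for ATF4, 46.1% for DDIT3, 38.4% for CEBPG, 36.8% for ATF3, 10.7% for CEBPB and -0.15% for TRIB3. The shares of JDP2 are taken against a DMSO value below the floor and depend on it. The same genes at 16 h of vemurafenib stood at 69.8% for JDP2, 61.5% for ATF4, 81.6% for DDIT3, 36.6% for CEBPG, 62.4% for ATF3, 22.0% for CEBPB and 57.2% for TRIB3, against the DMSO array of 16 h. Each share comes from the probe set used, and the order of the genes depends on it. The second probe set of ATF3 gave smaller differences, 0.50 with both drugs and 0.70 at 16 h. That of CEBPG gave larger ones, 0.71 and 0.68.

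**Figure D3:**
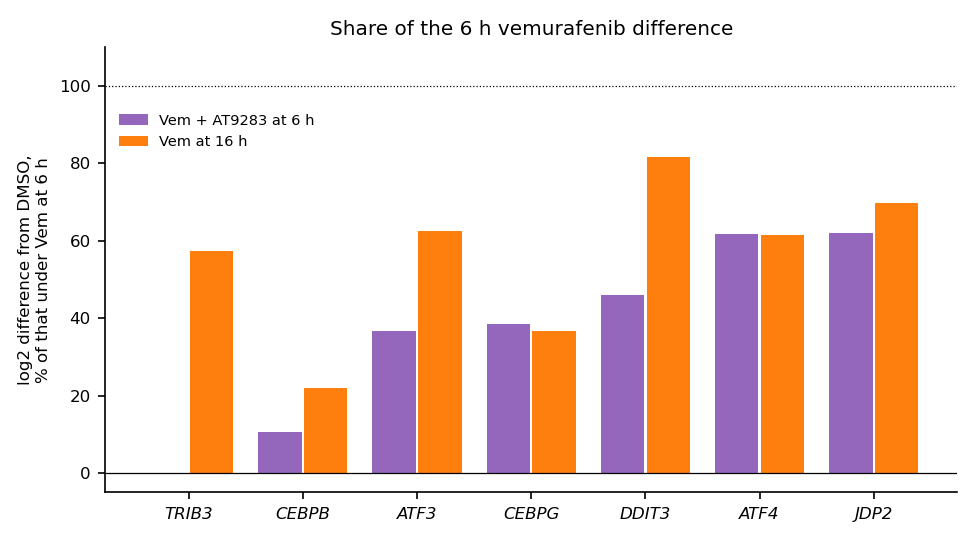
Log2 difference from DMSO as a percentage of the difference under vemurafenib at 6 h, for both drugs at 6 h and for vemurafenib at 16 h, in the 7 genes that were at least 1.5-fold higher at 6 h (bars start at 0, 1 array per condition). The bar for TRIB3 with both drugs is -0.15%, and at 16 h of vemurafenib it is 57.2%, each against DMSO of the same time. This gap depends on the control. Against the mean of both DMSO arrays the log2 differences of TRIB3 were 0.20 with both drugs and 0.32 at 16 h.

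The vemurafenib difference with AT9283 present, less that without it, was -1.18 for DDIT3, -1.09 for JDP2, -1.03 for ATF3, -1.001 for TRIB3, -0.96 for CEBPG, -0.62 for CEBPB, -0.38 for ATF4 and 0.14 for ATF5. The median was -0.98, and over all 9223 genes at the floor it was 0.01, with 95% of genes between -0.39 and 0.33. The 4 arrays at 6 h leave no residual for a test of this value. A limma fit of all 6 arrays, whose 1 residual degree of freedom is the change of the vemurafenib difference with time, averages that difference over both times and gave smaller interaction estimates of -0.99 (SE 0.29) for DDIT3 and -0.81 (SE 0.30) for TRIB3. In that limma fit none of 9709 genes was called for the interaction (0% in either direction), all 8 genes had an adjusted p of 0.999, and 39 genes had an unadjusted p under 0.05, DDIT3 and TRIB3 among them.

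The vemurafenib difference was then taken over both times, in a limma fit of the 4 vemurafenib and DMSO arrays with time as a block. This fit called 38 of 9653 genes higher (0.394%) and 85 lower (0.881%) at an adjusted p under 0.05, and 2 of the 8 were among the higher ones. By limma JDP2 was higher by 2.54 (SE 0.27, adjusted p 0.0387) and DDIT3 by 1.89 (SE 0.17, adjusted p 0.0291), on 2 of 2 arrays each. Both DMSO arrays of JDP2 were below the floor, so JDP2 entered the fit only through its vemurafenib arrays. Its call therefore rests on a filter passed by the group where it is high. ATF3, at 1.73 (SE 0.22), had a limma adjusted p of 0.0585 and ATF4, at 0.80 (SE 0.13), one of 0.0888. For CEBPG (0.89, SE 0.23), TRIB3 (0.72, SE 0.17), CEBPB (0.41, SE 0.17) and ATF5 (0.29, SE 0.15) the limma adjusted p lay between 0.147 and 0.306. What is left over in this fit is how far the difference moved between 6 h and 16 h, not replicate error. The calls of JDP2 and DDIT3 were both lost without the time block (limma adjusted p 0.119 and 0.0846) and without a trended prior (0.0671 and 0.0543). Both were also lost with the mean over probe sets, where DDIT3 had 0.0521 and JDP2 was below the floor and not tested. That of JDP2 was lost with 16 added to the intensities (0.0535) and without the floor on dim genes (0.0531).

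**Figure D4:**
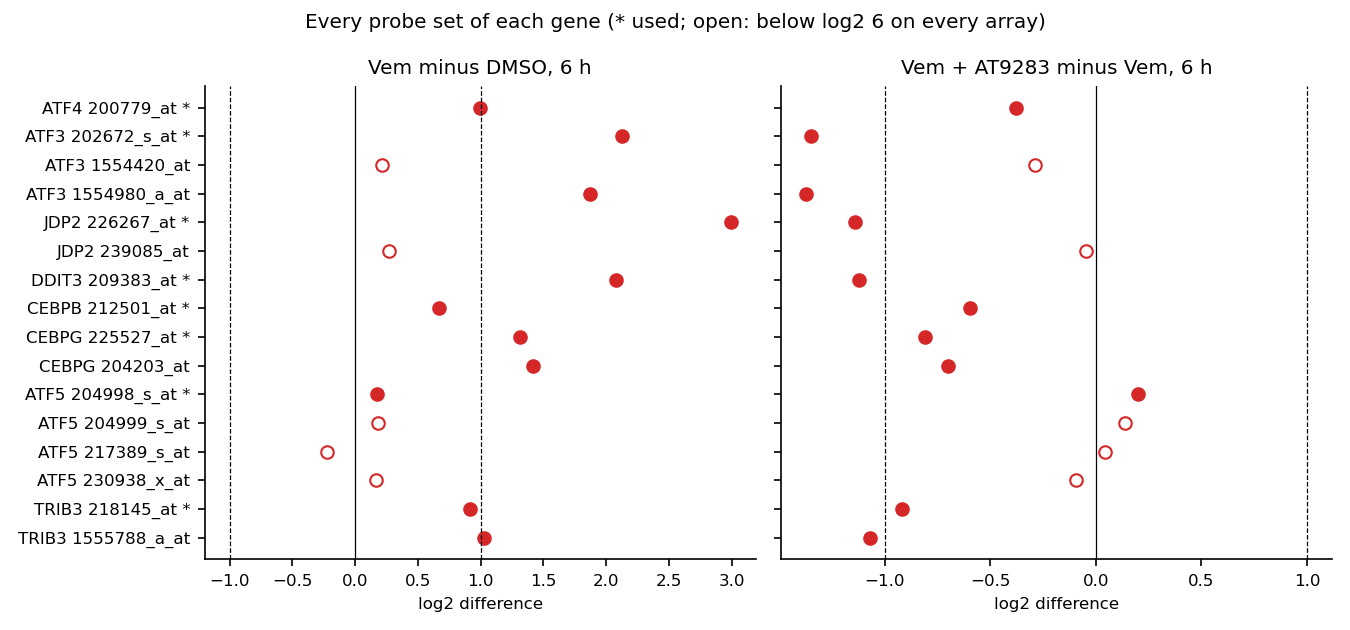
Log2 difference of each of the 16 probe sets of the 8 genes, for vemurafenib against DMSO and for both drugs against vemurafenib at 6 h (filled, log2 6 or more on at least 1 array; open, below it on every array; asterisk, the probe set used). The second filled probe sets of ATF3, CEBPG and TRIB3 lie within 0.26 of the one used for vemurafenib against DMSO.

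Of 35 genes known as ATF4 targets that were measured, 13 rose under vemurafenib at 6 h and none fell, with a median of 0.70, where 1.03% of all genes rose. At 16 h 13 rose, with a median of 0.64, where 5.19% of all genes rose. INHBE, which encodes an activin subunit, rose by 3.83, the glutathione-degrading CHAC1 by 3.36, the stress regulator NUPR1 by 3.26 and CTH, an enzyme of cysteine synthesis, by 3.20. Of the 13 at 6 h, INHBE, CHAC1, NUPR1, VLDLR, ALDH1L2 and SLC1A4 were below the floor in DMSO. They passed the floor only through the vemurafenib array, and the size of their differences depends on values near background. With both drugs 6 of the 35 rose against DMSO, with a median of 0.25, where 0.639% of all genes rose. Against vemurafenib alone 9 fell, where 0.322% of all genes did, and all 35 were lower, with a median of -0.49. Of these 9, INHBE, VLDLR, SLC1A4 and GDF15 were below the floor with both drugs. Of 7 genes attributed to CHOP, CHAC1 rose under vemurafenib at 6 h, CHAC1 and WARS1, a tRNA ligase, rose at 16 h, and none fell at either time. CHAC1 and WARS1 are both also on the ATF4 list, and no gene on the CHOP list alone rose. Of the 7, 4 were above DMSO by any amount at 6 h and 3 at 16 h. Their median was 0.11 at 6 h and -0.22 at 16 h. With both drugs their median was -0.01. There CHAC1 rose by 1.89 against DMSO, whereas PPP1R15A differed by -0.99 and TNFRSF10B by -0.79.

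Upstream of ATF4, none of the 7 genes for eIF2α (EIF2S1), its kinases and its phosphatase subunits passed the size rule at 6 h. Under vemurafenib at 6 h 1.03% of all genes rose and 2.14% fell, and the 4 kinase genes lay between -0.12 and 0.18. PPP1R15A, a phosphatase subunit gene, differed from DMSO by -0.46 under vemurafenib and by -0.99 with both drugs, just short of the rule. At 16 h EIF2S1 fell by 1.02, where 5.79% of all genes fell. Among 24 other factors of the CREB/ATF, C/EBP, BATF, NFE2L and PAR bZIP families, 1 rose at each time. NFIL3, a bZIP repressor, rose by 1.04 at 6 h, where 1.03% of all genes rose. DBP, a clock output factor, rose by 2.23 at 16 h, where 5.19% of all genes rose, so 1 of 24 there is no more than that share. The median of the 24 was 0.14 at 6 h and -0.08 for both drugs against vemurafenib alone. The other Tribbles genes, TRIB1 and TRIB2, fell in the 3 comparisons of vemurafenib, alone or with AT9283, with DMSO. In these, 2.14% of all genes fell at 6 h, 5.79% at 16 h and 1.93% with both drugs. TRIB1 differed by -2.003 under vemurafenib at 6 h, -2.34 at 16 h and -2.42 with both drugs, and TRIB2 by -2.67, -2.48 and -1.94. TRIB2 was below the floor on all 3 arrays with vemurafenib and TRIB1 on 2 of them, so these sizes depend on values near background. Of 12 ERK output genes 10 fell under vemurafenib at 6 h and 10 with both drugs, where 2.14% and 1.93% of all genes fell. The medians of the 12 were -2.55 and -2.51. Of the 12, 5 were below the floor on both of these arrays.

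**Figure D5:**
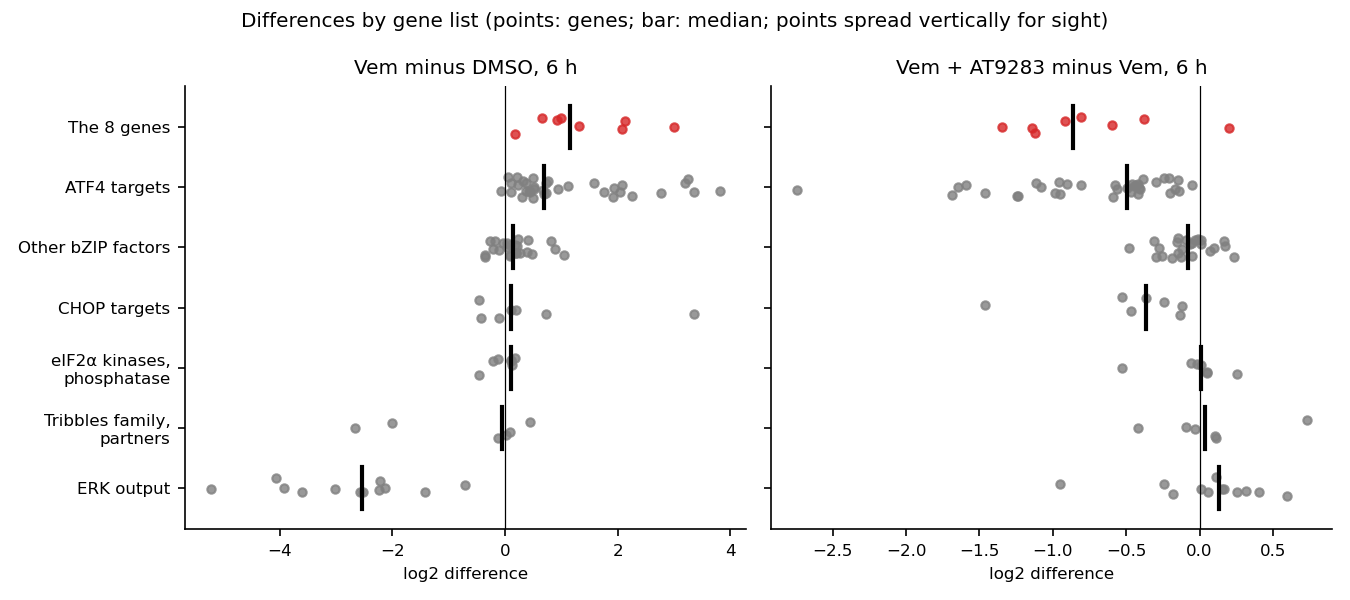
Log2 differences of single genes (points) and their medians (bars) in 7 gene lists, for vemurafenib against DMSO and for both drugs against vemurafenib at 6 h. The 8 genes and the 35 ATF4 targets have medians of 1.15 and 0.70 on the left and of -0.86 and -0.49 on the right, and the ERK output genes of -2.55 and 0.13.

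The profiles of 4 of the genes over the 6 arrays were compared with 2415 genes that had a mean log2 of at least 6 and a range of at least 0.8. These Pearson r rest on 6 arrays of 1 cell line that all share the 3 vemurafenib treatments, and are given as a description. Most like ATF4 were GPX8 (0.995), MMP3 (0.993), TMEM129 (0.988), SESN2 (0.987) and CTH (0.984). Most like DDIT3 were CTH (0.997), NFIL3 (0.995), MMP3 (0.993), GARS1 (0.993) and HERPUD1 (0.991). Most like JDP2 were MMP3 (0.994), GPX8 (0.990), TMEM129 (0.988), CTH (0.987) and NFIL3 (0.985), 4 of them shared with ATF4 and 3 with DDIT3. For TRIB3 the values were lower, with XBP1 (0.918), SLC3A2 (0.916), MITF (0.874), IFRD1 (0.867) and BLTP3A (0.864), and none of these 5 was among those named for ATF4, DDIT3 or JDP2.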

How the data were processed

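The authors deposited 1 linear intensity per probe set and array, and the submitters' processing notes list RMA and no other tool. No source used here says whether the 6 h and 16 h arrays went through RMA jointly, and time and processing cannot be told apart. Of 54675 probe sets, 1102 (2.02%) in 2 stretches of the table were left out because their 6 h values were out of step with their identifiers. There the DMSO arrays at 6 h and 16 h correlated at 0.440 as deposited and at 0.983 after reordering the 6 h values, against 0.992 elsewhere. The 62 control probe sets were left out too. Intensities were converted to log2. Each gene was read from the probe set naming it alone with the highest mean, with symbols as the platform annotation gives them. The 8 genes had 16 probe sets, none among those left out. Array medians lay between 19.8 and 21.3 in intensity, and 44.7% to 46.1% of genes reached the floor.

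Limma 3.58.1 in R 4.3.3 was fitted with a trended prior, with Benjamini-Hochberg adjustment over all genes with at least 1 array at log2 6. The code was also run on simulated data with independent noise on each array and the same shift at both times. The residual of the real fit is change with time, so that run checks the code and not the calls made here. Members, gene lists and tests were chosen with earlier results of these data known. All 8 genes are named. Other list genes are named when over 2-fold, at most 6 per list and comparison, and some beyond that where they mark a limit. For ATF4, DDIT3, JDP2 and TRIB3 the 5 most similar profiles are named, leaving out non-coding and uncharacterised symbols. Markers of cell type and DUSP6 are named as checks. The fit of the drug interaction was added after seeing the data.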

Additional observations from a re-analysis of the deposited data

Results flagged for a closer look

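TRIB3 was singled out because the vemurafenib difference had opposite signs with and without AT9283: it was -0.0855 on the log2 scale for both drugs against AT9283, and 0.9157 for vemurafenib against DMSO. The value of -0.0855 is smaller in size than the yardsticks of 0.26 and 0.48, so it shows no rise and is not read as a fall. Each value rests on 1 array per condition, and the arrays at 6 h leave no residual for a test of the difference between them. The limma fit of all 6 arrays estimates a different quantity, because it averages the vemurafenib difference over both times. Its interaction estimate for TRIB3 was smaller in size, at -0.81 (SE 0.30), and was not called.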

How the results depend on the processing

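The direction of every difference of the 8 genes that passed the size rule was kept under the 10 other settings of probe sets, scaling, background, rows, floor or control that bear on it. The count of genes risen at 6 h of vemurafenib was 4 and became 3 with the mean over probe sets or without probe sets ending in _s_at, _x_at or _a_at, and 5 with quantile normalization. At 16 h it was 3 and became 1 with the mean over probe sets. With both drugs against DMSO it was 1 and became 0 with that mean or with the floor at log2 7. For both drugs against AT9283 it was 2 and became 0 with that mean, and 1 with a floor of log2 7, with 16 added before log2 or without probe sets ending in _s_at, _x_at or _a_at. That mean includes probe sets below the floor. ATF3 then has only a probe set below the floor in the last setting, where its difference at 6 h was 0.21. ATF4 passed 2-fold at 6 h with quantile normalization (1.001), and TRIB3 at 6 h (1.12) and DDIT3 with both drugs (1.04) did so when the control was the average of the 6 h and 16 h DMSO arrays. The limma fit called 38 genes higher and 85 lower. It called 4 and 27 with the mean over probe sets, 0 and 12 without the time block, 8 and 35 without a trend, 22 and 58 without a filter, 24 and 62 without shared probe sets, and 61 and 120 with quantile normalization. Of the 8 genes it called 2, which became 0 with the mean over probe sets, without the time block or without a trend, 1 with 16 added or without a filter, and 3 with quantile normalization. The causes were not tested. Moving all arrays to a common median shifted the median difference of all genes by -0.03 at 16 h. Depth is limited by signal near background, which bears most on JDP2.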

Other observations

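Some other bZIP factors differed between the DMSO arrays of 16 h and 6 h. TEF, a clock output factor, differed by 1.15 and DBP by 0.998, but both were below the floor on both arrays. DBP under vemurafenib at 16 h was at log2 8.05, against 5.83 in DMSO at 16 h. ATF2, a stress-activated factor, differed by 0.60 between the DMSO arrays and by 0.48 under vemurafenib at either time. CREM had differences of -0.36 at 6 h and -0.59 at 16 h under vemurafenib. TEF, ATF2 and CREM were chosen after their values were seen.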
